A study of Bos taurus with 8 samples.

Results

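In all, 9 genes of the CC chemokine system were followed on 8 one-colour cattle arrays: the ligands CCL2, CCL3, CCL4, CCL5, CCL8, CCL20 and CCL21 and the receptors CCR1 and CCR7. They were chosen by name, as every non-control probe whose gene name, or the symbol of its accession, was 1 of these 9. That gave 23 probes for 9 genes, of 51282 probes and 18078 gene names in all. The arrays fall into 4 labelled pregnant (the title says pregnant, the description after pregnancy) and 4 labelled non-pregnant (the description says before pregnancy). Every sample is labelled as cotyledon of the fetus (the placental tufts of ruminants on that side) and as female, while the protocol speaks of gravid uteri of pregnant buffalo from a slaughterhouse. The organism is entered as Bos taurus, so whether the RNA came from cattle or buffalo is not settled by the labels. No age, breed, stage of gestation or number of animals is given, and no label ties the arrays of a group to different animals. The p-values below thus reflect spread among these samples alone, which may be technical.

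CC chemokines are small secreted proteins, named for a pair of adjacent cysteines near the start of the mature protein, that draw leukocytes along a gradient by binding G protein-coupled receptors on them. CCL2 and CCL8 are monocyte attractants, CCL3, CCL4 and CCL5 attract monocytes, T cells and natural killer cells, and CCL20 attracts cells that bear CCR6. CCL21, displayed by lymphatic vessels and lymph node stroma, guides T cells and dendritic cells that bear CCR7. In mouse decidua, the uterine lining of pregnancy, the expression of several chemokines that attract T cells is known to be held low.

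Probes of 60 bases stand for these genes, and some are shown to make clear what was hybridised. Positions were taken as the scanner files list them, on bovine build Btau_3.1 according to their headers. The sources used here do not give the place of a probe within its gene (exon, intron or UTR). Both CCL3 probes below map over a genomic span longer than the probe (915 and 363 bases). The first holds TGCTGC (capitals), which encodes adjacent cysteines in a frame with no stop codon over the whole probe. The CCL5 and CCL2 probes read in an open frame up to a stop codon (capitals) near their end.
CCL3 (chr19:13822185-13823099, plus strand): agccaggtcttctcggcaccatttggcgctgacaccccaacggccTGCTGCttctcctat
CCL3 (chr19:13823140-13823502, plus strand): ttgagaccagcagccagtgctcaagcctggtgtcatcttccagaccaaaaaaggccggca
CCL5 (chr19:13977162-13977221, plus strand): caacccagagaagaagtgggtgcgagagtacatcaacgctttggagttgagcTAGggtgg
CCL2 (chr19:15665710-15665769, minus strand): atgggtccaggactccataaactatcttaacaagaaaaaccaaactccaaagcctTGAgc

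Overlapping probes of 1 gene matter for CCL21 and CCR7, whose probes gave unequal differences, and only their ends are shown. The CCL21 probes share a run of 51 bases and the CCR7 probes a run of 40, and capitals mark the bases outside it. The CCL21 ends are bases 37 to 60 of each probe. The CCR7 ends are bases 1 to 24 of the tested probe and bases 37 to 60 of the other.
CCL21, probe 1 (chr8:80302950-80303005, minus strand): ccattctggccttctTCCCAAAAA
CCL21, probe 2 (chr8:80302951-80303010, minus strand): aacagccattctggccttctACCC
CCR7, tested probe (chr19:42039123-42039182, minus strand): GCTTTCAGTTCATTAAGAGAgcac
CCR7, other probe (chr19:42039103-42039162, minus strand): gaggAAACAACTTTAAAAGAAAGG
None of the 23 member probes shared a run of 20 bases or more with a probe of another gene, although a transcript not on the array could still bind. The mapped probes of CCL3 and of CCL20 lie on both strands, and those on the strand opposite to the tested CCL3 probes are read as separate signals below.

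Values are log2 of the processed spot intensity less the 75th percentile of all probes on that array, so 0 is the level of a fairly bright probe. A probe counts as well above background by the scanner software's flag, and genes were tested where that held on at least 4 of the 8 arrays. The arrays labelled pregnant had 60.6% to 66.0% of their probes above it, against 63.7% to 69.5% on those labelled non-pregnant. The correlation over all probes was 0.943 to 0.989 for pairs of arrays labelled pregnant, 0.957 to 0.987 for pairs labelled non-pregnant and 0.736 to 0.783 across labels. Array 4 labelled pregnant was the least like its own group (0.943 to 0.951). The groups' names go against their transcripts: 9 of 9 tested trophoblast markers and 7 of 8 tested erythroid markers were lower in the arrays labelled pregnant, and 6 of 9 tested endometrial markers were higher. Of the other endometrial markers, 1 was lower and 2 were not called. Every direction below therefore refers to the labels. In bulk tissue, fewer cells of a type and less RNA per cell cannot be told apart.

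All CC chemokine genes that could be tested, 8 of the 9, were higher in the arrays labelled pregnant, led by CCL5 and CCL4. CCL20 did not pass the filter on dim probes. CCR7 passed through the arrays labelled pregnant alone, so its direction was set by the filter. The other 7 genes were well above background on all 8 arrays. Over all genes, 62.7% of 13666 differed at an adjusted p below 0.05 (limma, Benjamini-Hochberg over all tested probes), with 30.0% higher on the arrays labelled pregnant and 32.6% lower. Called genes split 47.9% higher to 52.1% lower, but 35.2% to 64.8% with arrays scaled to their median and 31.9% to 68.1% unscaled. The 7 chemokine genes measured on all 8 arrays stayed higher under each. Of genes on probes well above background on every array, 29.0% were higher. The 7 chemokine genes on probes well above background on all 8 arrays had a median difference of 2.66, against -0.04 over all genes on such probes. The 4 values of each group did not overlap for 6 of these 7, against 59.0% of those genes. Of the 15 tested probes of the chemokine genes, 11 were well above background on all 8 arrays and all 11 were higher, against 29.4% of such probes. The remaining 4, of CCL5, CCL21 and CCR7, passed the filter only through the arrays labelled pregnant.

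**Figure D1:**
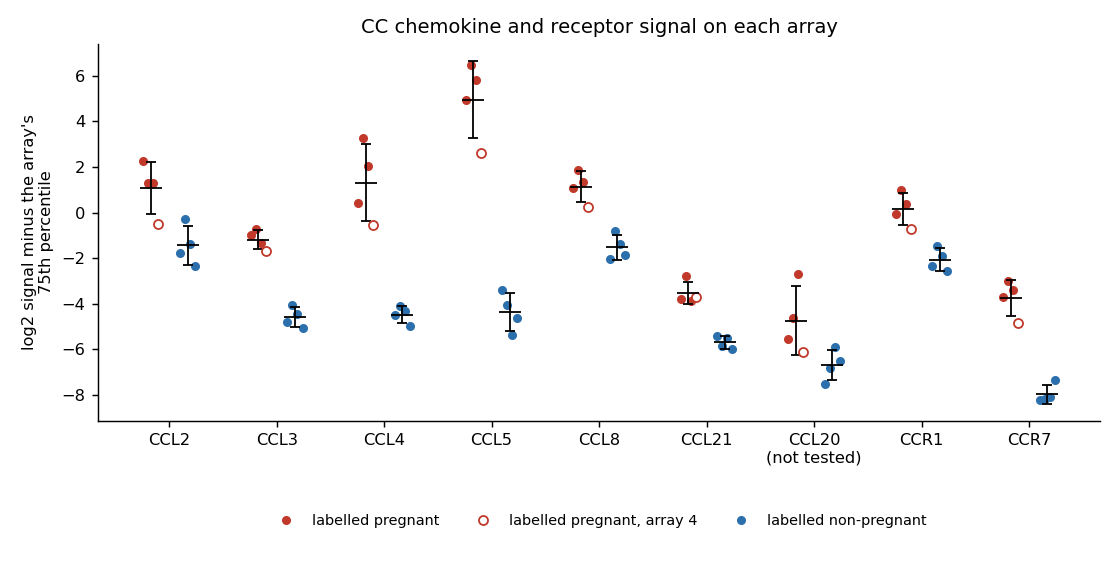
Log2 signal less the array's 75th percentile (vertical axis) of each CC chemokine and receptor gene on its brightest tested probe (CCL20: its brightest probe), with 4 arrays labelled pregnant (red, array 4 open) left of 4 labelled non-pregnant (blue). Black bars are the mean ± SD of 4 arrays. The red points lie above all blue points except for CCL2 and CCL20, and red array 4 is the lowest of its group for 7 of the 8 tested genes. Heights of different genes come from different probes and are not comparable.

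CCL5, the attractant also called RANTES that activated T cells and natural killer cells make, had the widest gap. On its brightest probe (chr19:13977535-13977591) the arrays labelled pregnant gave 4.96, 6.46, 5.83 and 2.60, against -3.40, -4.07, -5.38 and -4.63 on those labelled non-pregnant. The lowest array labelled pregnant, array 4, still lay far above the highest array of the other group. The mean was 4.96 ± 1.69 on the arrays labelled pregnant and -4.37 ± 0.84 on those labelled non-pregnant (SD, n = 4 per group). They differed by 9.33 (SE 0.79, 95% interval 7.53 to 11.13, adjusted p = 1.48e-05 in limma), or 643-fold. In absolute size this difference ranked 74 among 13666 genes. The other probes of CCL5 were well above background on every array labelled pregnant and on none labelled non-pregnant, and gave at least 1140-fold and at least 767-fold higher signal (adjusted p in limma 3.07e-06 and 1.85e-06). Such a bound sets the mean of the brighter group against a floor in the dimmer one, on each array the higher of the probe's own signal and the lowest signal of any probe well above background. The adjusted p printed beside a bound, here and below, belongs to the fitted limma difference, which uses readings at background. The bound itself was not tested. Without labelled pregnant array 4 the difference on the brightest CCL5 probe was 10.12.

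CCL4, a macrophage inflammatory protein, came next. Its brightest probe (chr19:13801571-13801630) read 0.43, 3.29, 2.06 and -0.53 on the arrays labelled pregnant, against -4.52, -4.09, -4.34 and -4.99 on those labelled non-pregnant. The arrays labelled non-pregnant lay within 1 log2 unit of each other, while those labelled pregnant were spread widely and stayed above them. The difference was 5.80 (SE 0.73, 95% interval 4.14 to 7.46, adjusted p = 0.000158, limma), or 55.6-fold. A further CCL4 probe (chr19:13801734-13801793) gave 3.57 (SE 0.67, adjusted p = 0.00168, limma) and also separated the groups. On no array was the remaining CCL4 probe well above background. On the brightest probe the difference was 5.14 without labelled pregnant array 2 and 6.41 without labelled pregnant array 4.

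CCL3, a related macrophage inflammatory protein that binds CCR1, was higher by less and with a narrow spread. The probe at chr19:13823140-13823502 read -0.98, -0.72, -1.35 and -1.71 on the arrays labelled pregnant, against -4.79, -4.07, -4.46 and -5.07 on those labelled non-pregnant. Both groups had an SD of 0.43, and the gap between them was several times that. The difference was 3.41 (SE 0.29, 95% interval 2.74 to 4.07, adjusted p = 1.58e-05, limma), or 10.6-fold. The probe that holds the cysteine codons, upstream of it on the same strand, gave a smaller difference of 1.35 (SE 0.39, adjusted p = 0.0156, limma). There the arrays labelled pregnant read -3.07, -1.84, -2.95 and -3.90, against -4.55, -4.03, -4.14 and -4.44 on those labelled non-pregnant, and the closest values of the groups almost met. The probe on the opposite strand exceeded background clearly on 1 array only, labelled pregnant array 2 (-2.65).

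CCL8, also known as monocyte chemoattractant protein 2, was higher to the same extent on both of its probes. On the brighter one (chr19:15404030-15404089) the arrays labelled pregnant read 1.09, 1.88, 1.34 and 0.26, against -2.04, -0.80, -1.39 and -1.85 on those labelled non-pregnant. The groups did not overlap. The difference was 2.66 (SE 0.39, 95% interval 1.78 to 3.54, adjusted p = 0.000371, limma), or 6.33-fold. On the second CCL8 probe it was 2.64 (SE 0.34, adjusted p = 0.000179, limma).

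CCL2, the main monocyte attractant, was the 1 tested gene whose groups overlapped. Its brighter probe (chr19:15665370-15665429) read 2.25, 1.28, 1.30 and -0.49 on the arrays labelled pregnant, against -1.77, -0.29, -1.38 and -2.34 on those labelled non-pregnant. The overlap lay between labelled pregnant array 4 and labelled non-pregnant array 2. The difference was 2.53 (SE 0.61, 95% interval 1.15 to 3.91, adjusted p = 0.00626, limma), or 5.77-fold, and the probe that ends in the stop codon gave 2.12 (SE 0.61, adjusted p = 0.0143, limma). Without labelled pregnant array 4 the difference on the brighter CCL2 probe was 3.05, and the remaining arrays of the groups did not overlap.

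CCL20, which attracts CCR6-bearing lymphocytes and dendritic cells, was dim throughout. Its probe at chr2:120594117-120594176 read -5.55, -4.64, -2.69 and -6.13 on the arrays labelled pregnant, where it was well above background on 2 arrays, against -7.53, -6.82, -5.91 and -6.52 on those labelled non-pregnant, where it was so on none. The groups overlapped, and the probe did not pass the filter. With no filter on dim probes it was called higher (1.94, SE 0.69, adjusted p = 0.0395, limma), although no array labelled non-pregnant measured it. Of its other probes, 1 was well above background on a single array labelled non-pregnant (array 3, -3.72) and 1 on no array.

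CCL21, the lymphatic ligand of CCR7, was higher on both of its overlapping probes, by unequal amounts. Probe 1 read -3.78, -2.80, -3.87 and -3.69 on the arrays labelled pregnant, against -5.44, -5.85, -5.50 and -6.01 on those labelled non-pregnant, and was well above background on all 8. The groups did not overlap, and array 2 lay above the other arrays labelled pregnant. The difference was 2.17 (SE 0.28, 95% interval 1.54 to 2.80, adjusted p = 0.000169, limma), or 4.49-fold, and 2.22 without labelled pregnant array 4. Probe 2, shifted by a few bases, read -4.14, -3.04, -4.23 and -4.29 on the arrays labelled pregnant and was well above background on none labelled non-pregnant, which gave at least 10.1-fold higher signal (adjusted p = 4.46e-06, limma). Averaging the CCL21 probes gave 3.35, and the normexp background correction gave 1.19 on probe 1, both still called.

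**Figure D2:**
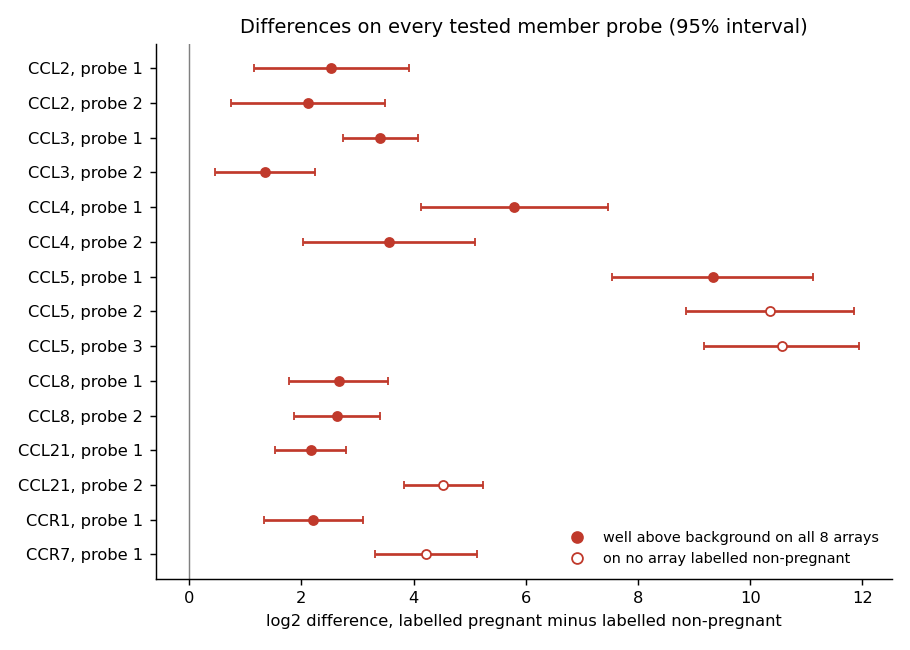
Log2 difference, labelled pregnant minus labelled non-pregnant (horizontal axis), on each of the 15 tested probes of the CC chemokine and receptor genes, numbered from the brightest within a gene. Bars are 95% intervals from limma, and open points mark probes well above background on no array labelled non-pregnant. Every interval lies right of 0, from 1.35 for the dimmer CCL3 probe to 10.56 for a CCL5 probe.

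CCR1, a receptor of monocytes and other leukocytes that binds CCL3 and CCL5, was higher in the arrays labelled pregnant. Its brighter probe (chr22:54591448-54591507) read -0.05, 0.99, 0.36 and -0.71 on those arrays, against -2.34, -1.45, -1.89 and -2.58 on the arrays labelled non-pregnant. The groups did not overlap. The difference was 2.22 (SE 0.39, adjusted p = 0.00109, limma), or 4.64-fold. The second CCR1 probe, at chr22:54589884-54589943, was well above background on no array, so CCR1 rests on 1 probe.

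CCR7, the receptor that takes T cells and mature dendritic cells towards CCL21 and CCL19, was measured in 1 group only. Its tested probe read -3.72, -3.03, -3.39 and -4.87 on the arrays labelled pregnant, all well above background, against -8.24, -8.18, -8.12 and -7.36 on the arrays labelled non-pregnant, none of them well above it. The signal was at least 11.0-fold higher (adjusted p = 2.76e-05, limma), and the fitted difference was 4.22. With the normexp background correction that difference fell to 1.39 (adjusted p = 0.000966, limma), and under a filter that asked for all 8 arrays CCR7 was not tested. The probe that overlaps it by 40 bases and the remaining CCR7 probe were well above background on no array, so the CCR7 result rests on 1 of 3 probes.

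The same arrays were high or low for most of these genes within each group. Labelled pregnant array 2 was the highest of its group for 7 of the 8 tested genes and array 4 the lowest for 7 of 8. Among the arrays labelled non-pregnant, array 2 was the highest for 5 of 8 and array 4 the lowest for 5 of 8. Deviations from the group mean correlated positively for all 28 pairs of genes (Pearson, 8 arrays), from 0.02 for CCL2 with CCL21 to 0.97 for CCL8 with CCR1. This is a description without a test, since the genes share each array's RNA, labelling and scaling. Leaving out labelled pregnant array 4 kept all 8 genes called higher, with differences of 2.22 (CCL21) to 10.12 (CCL5). For CCR7 the direction was set by the filter. Its readings on the arrays labelled non-pregnant were not well above background. They still enter its correlations and the counts of highest and lowest arrays of that group.

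**Figure D3:**
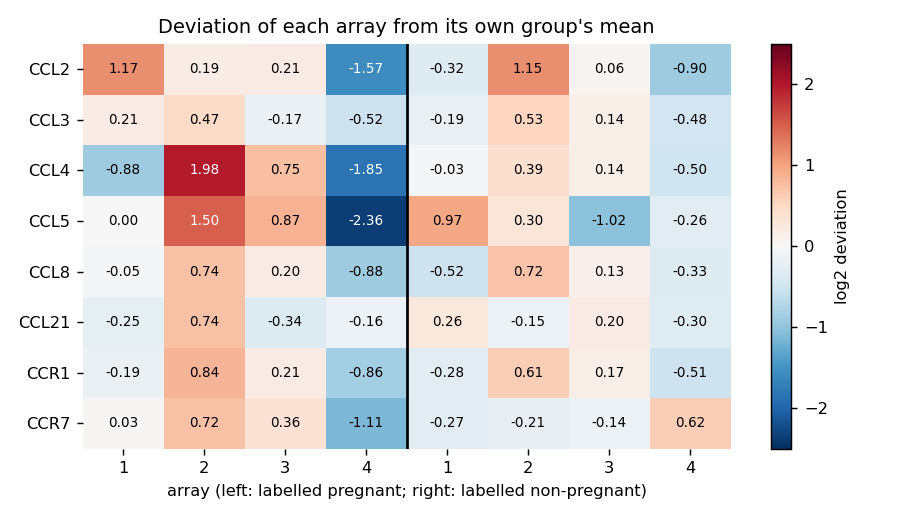
Deviation of each array (columns; 4 labelled pregnant left, 4 labelled non-pregnant right) from its own group's mean for the 8 tested genes (rows), on the log2 scale, red above and blue below the mean. Labelled pregnant array 4 is below its mean for all 8 genes, most for CCL5 (-2.36), and array 2 is above it for all 8.

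Other ligands of the CC, C and CX3C families differed in both directions. Of 15 listed ligands, 11 were tested, 6 of them higher, 2 lower and 3 not called in the arrays labelled pregnant, with a median difference of 2.42. The share called was 72.7%, near the 62.7% of all genes. CCL11, higher, and CCL17, lower, passed the filter through a single group, so their directions were set by it. CCL25 was not called (-0.29), though its other tested probe was called in the opposite direction. CX3CL1 (fractalkine, a membrane-bound attractant) read 2.48, 2.04, 1.78 and 1.04 on the arrays labelled pregnant, against -6.29, -7.57, -6.47 and -4.79 on those labelled non-pregnant, where a single array was well above background. Its difference was 8.12 (SE 0.55, adjusted p = 4.37e-06, limma). CCL14 (3.86, SE 0.27), XCL1, a lymphocyte attractant (3.63, SE 0.38), and the eosinophil attractant CCL11 (at least 13.7-fold) rose as well (adjusted p in limma 4.88e-06, 4.98e-05 and 0.000272). CCL19, the second ligand of CCR7, gave 1.01 (SE 0.42, adjusted p = 0.0624, limma), on a probe well above background on 3 of 4 arrays of each group. Without labelled pregnant array 1 CCL19 was called (1.36, adjusted p = 0.013, limma). The ligands that were lower, named after their values were seen, were CCL17, an attractant of CCR4-bearing T cells (at least 9.72-fold lower, adjusted p = 0.00786, limma), and the mucosal epithelial ligand CCL28 (-2.07, SE 0.56, adjusted p = 0.0115, limma). CCL17 was uneven among the arrays labelled non-pregnant, which read -0.96, -1.49, -4.94 and -5.32, and its bound was 5.83-fold without array 1 and 16.0-fold without array 4 of that label. Without labelled pregnant array 4 the difference of CCL28 was -1.45.

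Several of these ligands lie close together on chromosome 19. The probes of CCL4, CCL3, CCL14, CCL16 and CCL5 lie in that order between 13801571 and 13977591, and those of CCL8, CCL11 and CCL2 between 15404030 and 15665769. All of these ligand genes were called higher, by 2.53 (CCL2) to 9.33 (CCL5), where 30.0% of all genes were called higher. CCL11 passed the filter through the arrays labelled pregnant alone, so its direction was set by the filter. CCL16 was at 2.99 (SE 0.75, adjusted p = 0.00754, limma) and at 2.26 without labelled non-pregnant array 4. Neighbours elsewhere differed in their calls. On chromosome 8 CCL21 was called higher and CCL19 was not called, and on chromosome 25 CCL26 was called (2.42, adjusted p = 0.027, limma) and CCL24 was not (-0.96). The call of CCL26 was lost when any array other than labelled pregnant array 4 was left out (adjusted p 0.0524 to 0.0714, limma). On chromosome 18 the probe of CX3CL1 (25314209 to 25314268) was higher, while that of its neighbour CCL22 did not pass the filter.

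Receptors of the family were mostly too dim to test. Of 10 other receptors listed, 9 had a probe and only CX3CR1, the receptor of CX3CL1 on monocytes and cytotoxic cells, passed the filter (2.48, SE 0.26, adjusted p = 4.81e-05, limma). CCR2, the receptor of CCL2, read -6.58, -4.94, -5.85 and -7.86 on the arrays labelled pregnant, against -8.26, -8.61, -8.16 and -8.73 on those labelled non-pregnant, and was well above background on 1 array labelled pregnant. CCR6, the receptor of CCL20, was so on none.

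Atypical receptors bind chemokines without the usual G protein signal, and many remove them from the tissue. ACKR2, a scavenger of inflammatory CC chemokines known from human and mouse trophoblast, was lower in the arrays labelled pregnant, which read -0.76, -2.66, -2.97 and -2.96, against -0.30, -0.34, 1.13 and 0.20 on those labelled non-pregnant. The groups did not overlap, and the difference was -2.51 (SE 0.54, adjusted p = 0.00349, limma). ACKR3 (2.77, SE 0.40) and CCRL2 (1.90, SE 0.30) were higher (adjusted p in limma 0.000326 and 0.000641). The remaining atypical receptors with a probe, ACKR1 and ACKR4, were not tested. Over the listed ligands, receptors and atypical receptors, 12 of 15 tested genes were called, 9 higher and 3 lower, where 62.7% of all genes were called and 30.0% were higher. Among them CCL11 (higher) and CCL17 (lower) passed the filter through a single group, so their directions were set by it. Under a filter that asked for all 8 arrays, fewer were tested and 7 were called, where 7109 of 11443 tested genes were called in all.

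**Figure D4:**
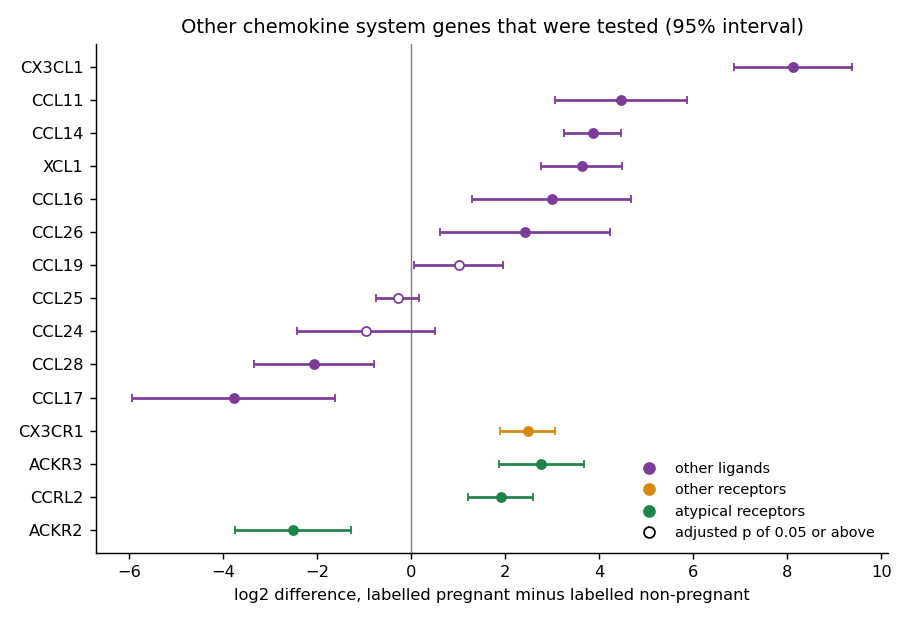
Log2 difference, labelled pregnant minus labelled non-pregnant (horizontal axis), for the 15 tested genes among other chemokine ligands (purple), other receptors (orange) and atypical receptors (green). Bars are 95% intervals from limma, and open points are genes with an adjusted p of 0.05 or above. CX3CL1, at 8.12, was well above background on 1 array labelled non-pregnant, and CCL17, at -3.77, on no array labelled pregnant, so both points depend on readings at background.

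Genes whose pattern over the 8 arrays was most like that of each chemokine gene were found by Pearson correlation, which mostly follows the gap between the groups. For CCL5 they were PSMB9 (0.998), GRINA and ADGRG5, for CCL4 LOC100137765 (0.995), SNX20 and GZMM, and for CCL3 CD244 (0.996), ASB2 and TMEM231. For CCL8 they were SPI1 (0.996), TAGAP and PRKCQ, for CCL2 NCAN (0.992), YARS2 and NLGN3, and for CCL21 PSME1 (0.996), LRRTM1 and TRAT1. CCR1 was most like CD83 (0.993), then CCL8 (0.993) and LOC100137765, and CCR7 most like LOC786760 (0.997), BOLA-DOA and ARHGAP45.

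Markers of cells that make or answer these chemokines were counted on the same arrays. Over all genes, 30.0% were called higher and 32.6% lower. T cell markers were higher for 8 of 9 tested genes and lower for 0, led by LCK (6.54, SE 0.28), CD3E (10.30, SE 0.63, measured on only 1 array labelled non-pregnant), CD3G (at least 158-fold) and CD8A (6.05, SE 0.57). CD3G and CD5 passed the filter through the arrays labelled pregnant alone, so their direction was set by it. CD3D, well above background on all 8 arrays, gave 0.98 (SE 0.195, adjusted p = 0.00221, limma), and CD4 gave 0.33 (SE 0.23, adjusted p = 0.247, limma). The summed T cell signal, in multiples of the array's 75th percentile, was 18.98 to 57.4 on the arrays labelled pregnant and 5.89 to 7.88 on those labelled non-pregnant. Array 4 had the lowest T cell median of the arrays labelled pregnant, at 0.58, with 1.73 to 1.86 on the others of that label, and was also the lowest for the dendritic cell, monocyte and macrophage, neutrophil and endometrial lists. Of 6 tested dendritic cell markers, 5 rose and 1 fell (CD1A, adjusted p = 0.0479, lost when most single arrays were left out). Of those that rose, CD1B passed the filter through the arrays labelled pregnant alone. The summed signal of the dendritic cell markers was 2.04 to 5.50 on the arrays labelled pregnant and 0.395 to 0.721 on those labelled non-pregnant. Of 11 monocyte and macrophage markers, 6 rose and 3 fell, and their summed signal was 39.4 to 137.9 in the arrays labelled pregnant and 105.8 to 153.7 in those labelled non-pregnant. FCGR1A (5.92, SE 0.44) and C1QC (4.59, SE 0.57) rose while AIF1 (-3.09, SE 0.35) and CSF1R (-1.93, SE 0.26) fell, and ITGAM did not pass the filter. LYZ fell too (-0.69, adjusted p = 0.0397, limma), though its other tested probe was called in the opposite direction. The call of LYZ was lost when any array other than labelled non-pregnant array 4 was left out (adjusted p 0.052 to 0.0935, limma). CD163, not called on all arrays, was called higher without labelled pregnant array 4 (1.56, adjusted p = 0.000557, limma).

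Of 4 tested neutrophil markers, 2 rose, S100A12 and S100A9 (adjusted p = 0.0411, likewise lost), and 0 fell (summed signal 0.483 to 1.96 labelled pregnant, 0.136 to 0.584 labelled non-pregnant), with MPO and CXCR2 not tested. Both tested markers of lymphatic endothelium, PDPN and LYVE1, rose (3.72 to 10.3 labelled pregnant, 0.259 to 1.51 labelled non-pregnant), while PROX1, which defines that cell type, did not pass the filter. Trophoblast markers summed to 1.58 to 7.79 on the arrays labelled pregnant and to 559.8 to 864.8 on those labelled non-pregnant, with CDX2 and PLAC1 well above background on none labelled pregnant. Endometrial markers summed to 121.0 to 230.3 on the arrays labelled pregnant and 28.5 to 38.4 on those labelled non-pregnant. Of 9 tested, 6 were higher, 1 lower and 2 not called (FOXA2 and PAEP). The lower gene, named after its value was seen, was MSX1 (-1.05, SE 0.30, adjusted p = 0.014, limma). The brightest was GRP on the arrays labelled pregnant (mean 7.07) and MSX1 on those labelled non-pregnant (mean 4.99). The sums of the groups thus rest mostly on different genes. Erythroid markers summed to 0.700 to 2.93 on the arrays labelled pregnant and 337.1 to 604.0 on those labelled non-pregnant, HBB and ALAS2 being well above background on no array labelled pregnant. The part of these cell types in the chemokine differences was not tested.

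**Figure D5:**
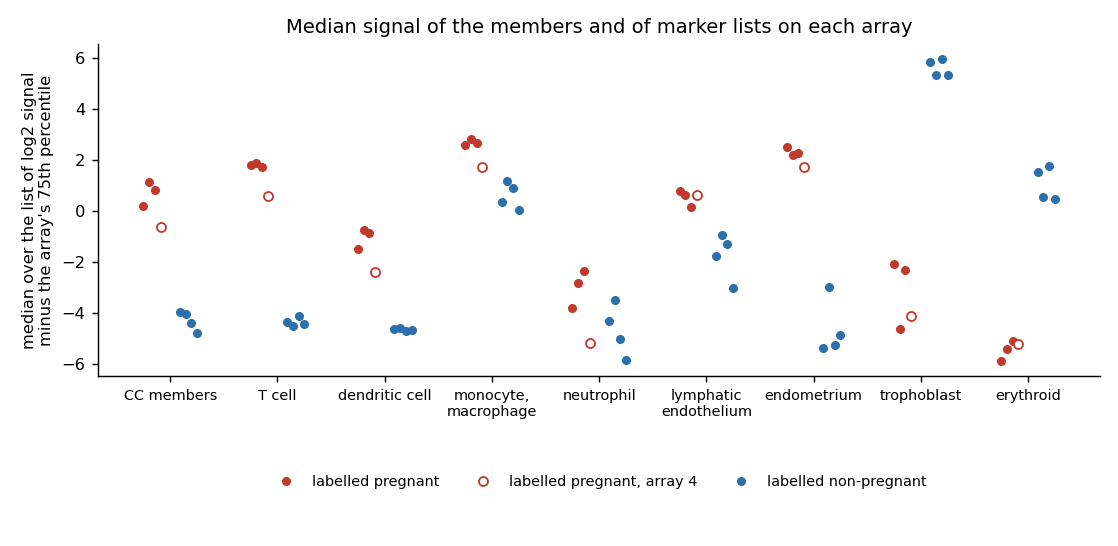
Median over each list's tested genes of the log2 signal less the array's 75th percentile (vertical axis), for the CC chemokine and receptor genes and 8 marker lists, with 4 arrays labelled pregnant (red, array 4 open) left of 4 labelled non-pregnant (blue). The T cell and dendritic cell medians are higher on every array labelled pregnant, and array 4 labelled pregnant is the lowest of its group for the chemokine genes (-0.62) and for the T cell (0.58), dendritic cell (-2.41), monocyte and macrophage (1.72), neutrophil (-5.19) and endometrial (1.71) lists.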

How the data were processed

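Total RNA was labelled with Cy3 and hybridised 1 sample per array, per the labels. Agilent Feature Extraction (11.5.1.1, per the file headers) gave the deposited spot intensity, with background and spatial trend removed and no scaling between arrays. Flags deposited beside it mark spots well above background, saturated (0) or outlying. The authors also deposited a log2 table, which tracked the log2 intensity of each array at r = 0.999 or above. Its scale and centring are read from the values.

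From these, log2 intensity was averaged over the spots of a probe and the array's 75th percentile subtracted, leaving out 1319 control spots per array and 119 outlying spots. Probes well above background on at least 4 arrays (34627) were tested with limma 3.58.1 in R 4.3.3, without covariates, at an adjusted p of 0.05. A gene is its brightest tested probe. Names came from the scanner files and a RefSeq gene table (ARS-UCD2.0), whose symbols matched 28112 probes by accession, 1770 by another accession, 5520 by symbol and 149 by synonym. The file's name was kept for 15726 probes. All chemokine genes were named, and at most 4 genes of each other list, those of smallest adjusted p, unless said otherwise. Members, lists and tests were chosen with earlier results of these data known. The procedure was tested on simulated data. All 8 arrays share 1 scan, and each row of arrays on the slide holds 1 group, so position and group cannot be told apart. The number of arrays limits the precision. The result of 1 listed gene is not reported here.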

Additional observations from a re-analysis of the deposited data

Results flagged for a closer look

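Of 16 sets of 4 arrays (8 genes, 2 groups), 2 held an array far from the rest by Dixon's criterion, which chance meets in about 1 of 20 sets. For CCL21, labelled pregnant array 2 read -2.80, while the other arrays of that label lay between -3.87 and -3.69. For CCR7, labelled non-pregnant array 4 read -7.36, while the others lay between -8.24 and -8.12. The scanner software called none of these 4 readings well above background.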

How the results depend on the processing

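Over 20 alternatives (background correction, scaling, filters, probe choice, the authors' log2 table, a replicate block, array weights and arrays left out), the 8 chemokine genes stayed called higher wherever they were tested. The main filter set the direction of CCR7. Without the filter on dim probes CCL20 was called too. CCL2 ranged from 1.96 to 3.08 (adjusted p 0.000835 to 0.0191 in limma), CCL5 from 8.28 to 10.12 and CCL4 from 4.62 to 6.46. CCL21 lay between 1.19 (normexp) and 3.35 (mean of its probes) and CCR7 between 1.39 (normexp) and 4.77. With a filter asking for all 8 arrays, 7 of the chemokine genes were tested and all 7 called, and other chemokine system genes called numbered 7 against 12, since fewer were tested. Over all genes that filter left 11443 tested, of which 7109 were called. The median difference of all genes moved to -0.40 when arrays were scaled to their median, -0.50 when left unscaled, 0.15 for the percentile of detected probes and 0.27 when dim probes were kept, and the share of called genes that were higher was 47.9%, but 35.2%, 31.9%, 54.1% and 56.7% under these. With the replicate number as a block, 8 chemokine genes and 8322 genes were called. Arrays of the same number deviated together at r = 0.009, 0.075, 0.05 and 0.155 only, so they are not treated as pairs.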

Other observations

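Regulators and inducers of NF-kB, a transcription factor known to switch on many chemokine genes, were mostly higher in the arrays labelled pregnant, on the 75th percentile scaling. Of 13 tested genes, 9 were higher, 3 lower and 1 not called, with a median difference of 0.91. The share called was 92.3%, where 62.7% of all genes were called and 30.0% were higher. The call of the subunit NFKB1 (0.69) was lost without labelled non-pregnant array 2, or without labelled pregnant array 2 or 3. The inhibitor NFKBIA (2.91, SE 0.30), the cytokines IL1B (2.41, SE 0.30) and IL1A (3.40, SE 0.56) and the lymphotoxin chain LTB (2.46, SE 0.43) had the smallest adjusted p values (limma, 5.04e-05 to 0.00111). The genes that were lower, named after their values were seen, were the NF-kB inhibitor TNFAIP3, the subunit REL and the cytokine LTA. TNFAIP3 was well above background on no array labelled pregnant, so its direction was set by the filter.

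Genes that carry the signal of chemokine receptors went both ways. Of 20 tested, 6 were higher, 8 lower and 6 not called, with a median of -0.44. Among the lower genes, the calls of CDC42, GNAI3 and PTK2B were lost when some single arrays were left out. Among those not called, ARRB2 and GRK2 were called higher and RAC2 lower when certain single arrays were left out. The share called was 70%, near the 62.7% of all genes. RGS1, GRK3 and PLCB2 passed the filter through the arrays labelled pregnant alone, so their direction was set by it. RGS1, which shortens G protein signals in lymphocytes, was at least 1590-fold higher and the receptor kinase GRK3 at least 10.8-fold higher (adjusted p in limma 8.68e-07 and 6.39e-06). The GTPase RAC1 (-2.40, SE 0.18) and the receptor kinase GRK6 (-3.47, SE 0.37) were lower.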
